A study of Rattus norvegicus with 2 samples.

Results

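The NR4A and EGR immediate early regulators and 4 genes induced beside them or acting upstream were described in the cervical lymph nodes of stressed and unstressed rats. The members were fixed by name: Nr4a1, Nr4a2, Nr4a3, Egr1, Egr2, Egr3, Ier2, Ier3, Myc and Srf. These are 10 of 36174 gene names on the array and of 21096 screened genes, that is, genes whose brightest probe stood well above background on at least 1 array. All 10 were well above background on both arrays. The C group was unstressed and the RS group was exposed to restraint stress; in the study rats were fastened on their backs to a board. Both groups were male Sprague-Dawley rats, 10 to 12 weeks old, with no other treatment named in the labels. RNA of each group was hybridized to 1 array and read in 1 color, Cy3. The labels give no restraint time; the microarray comparison described in the study is between C and RS30, the shortest of its restraint groups, which are named by their minutes of restraint. The number of rats behind an array and any pooling are not given in the sources used here. With 1 array per group, a difference cannot be set against the spread between rats, and nothing was tested. The error printed with a difference, called the spot error, is derived from the errors that the scanner software reports per spot. It does not cover animals. Repeat spots of a probe were treated as independent readings, so the error shrinks for a probe with more spots.

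Immediate early genes are transcribed within minutes of a stimulus, without the need for new protein synthesis, and many encode transcription factors that act on later genes. NR4A proteins are orphan nuclear receptors that bind DNA as monomers or dimers, and EGR proteins are zinc finger factors that bind GC-rich sites; both families are well known in T and B lymphocytes, where antigen receptor signals induce them. SRF, with its cofactors, binds the CArG box in the promoters of many immediate early genes, whereas CREB binds the cyclic AMP response element (CRE).

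The promoters of 4 members are shown to place these elements before the values. Sequences are from RefSeq, assembly GRCr8, and cover 250 bases upstream of the annotated start site, 5′ to 3′ on the strand of the gene. Capitals mark CArG boxes, the full CRE TGACGTCA, the EGR site GCGGGGGCG and the CRE-like heptamer TGCGTCA. Windows were found for 6 of the 10 members (Nr4a1, Nr4a2, Egr1, Egr2, Ier2 and Srf).
Nr4a1, chr7:134259888-134260137, plus strand: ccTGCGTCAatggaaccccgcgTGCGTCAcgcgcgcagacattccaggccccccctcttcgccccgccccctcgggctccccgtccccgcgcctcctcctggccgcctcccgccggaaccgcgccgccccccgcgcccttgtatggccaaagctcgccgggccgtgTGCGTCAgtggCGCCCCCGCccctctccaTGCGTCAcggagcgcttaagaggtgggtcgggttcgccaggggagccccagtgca
Egr2, chr20:21054442-21054691, minus strand: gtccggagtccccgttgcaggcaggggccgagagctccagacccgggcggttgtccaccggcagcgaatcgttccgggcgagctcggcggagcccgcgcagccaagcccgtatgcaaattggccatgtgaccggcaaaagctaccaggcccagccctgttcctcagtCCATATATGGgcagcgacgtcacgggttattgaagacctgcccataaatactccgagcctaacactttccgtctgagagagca
Ier2, chr19:40399123-40399372, plus strand: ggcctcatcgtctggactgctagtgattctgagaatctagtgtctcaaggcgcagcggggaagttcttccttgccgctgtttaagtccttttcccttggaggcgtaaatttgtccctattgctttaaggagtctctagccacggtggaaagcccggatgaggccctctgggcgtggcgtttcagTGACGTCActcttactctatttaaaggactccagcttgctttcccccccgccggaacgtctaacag
Srf, chr9:21923826-21924075, plus strand: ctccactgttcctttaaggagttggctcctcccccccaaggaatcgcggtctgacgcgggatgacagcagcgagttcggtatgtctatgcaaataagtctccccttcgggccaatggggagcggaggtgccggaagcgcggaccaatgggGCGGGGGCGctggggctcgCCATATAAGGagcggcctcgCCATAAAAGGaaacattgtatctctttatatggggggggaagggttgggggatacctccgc

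Both strands were searched from 250 bases upstream to 50 bases downstream of the start site, in the members and in all 33469 windows of the table. A CArG box was present in 3 of the 6 member windows and in 1.64% of all windows. Egr1 and Srf each held 2 such boxes, and Egr2 held 1. The Egr1 and Egr2 windows were alike in layout: each held a CArG box at positions -83 to -74 and the CRE core, read on the minus strand, at -66 to -62. Ier2 alone held the full CRE, at -66 to -59, which occurred in 1.83% of all windows. The CRE core TGACG, which the full CRE contains, was present in 6 of 6 member windows and in 21.2% of all windows. The EGR site GCGGGGGCG was found in Nr4a1 at -73 to -65 and in Srf at -100 to -92, and in 2.73% of all windows. The Nr4a1 window also held 4 copies of the heptamer TGCGTCA, each overlapping a CRE core; this motif was chosen after the windows had been read and occurred in 1.90% of all windows. The EGR site GCGTGGGCG (0.544% of all windows), the NR4A monomer site AAAGGTCA (1.43%) and the E box CACGTG bound by MYC (6.42%) had no match in the 6 windows. The start sites used for Nr4a1, Nr4a2 and Egr2 lay 12985, 11039 and 760 bases inside the annotated gene boundary, so that other promoters of these genes were not searched. A match is a string of letters, and binding was not measured.

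**Figure D1:**
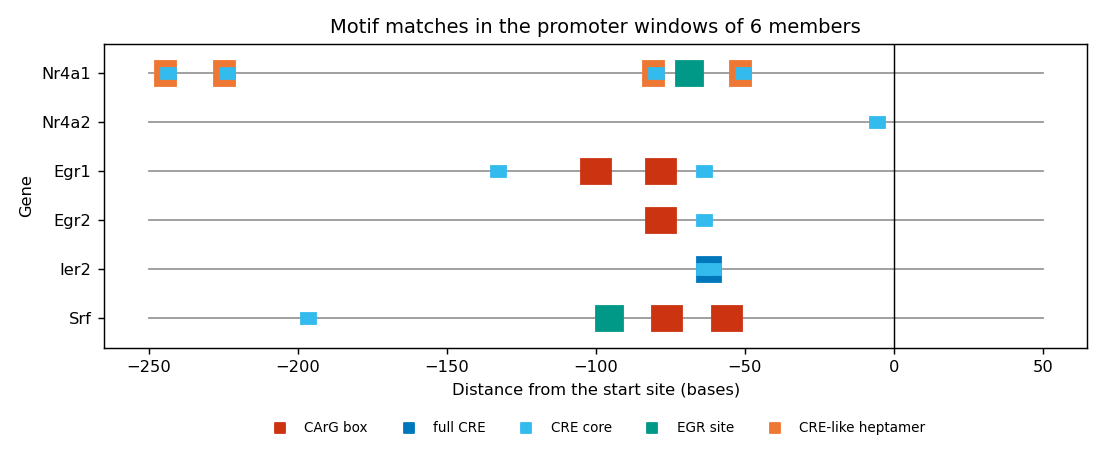
Positions of motif matches in the promoter windows of 6 members, with the distance from the start site in bases on the horizontal axis and 1 line per gene. CArG boxes stand between -105 and -52 in Egr1, Egr2 and Srf, and Nr4a1 shows 4 heptamers and 1 EGR site.

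Of the 10 members, 4 were at least 2-fold higher on the RS array (Nr4a1, Nr4a2, Nr4a3 and Ier3) and 0 were at least 2-fold lower. Among all screened genes, 3.46% were at least 2-fold higher and 4.28% at least 2-fold lower. Dim genes passed 2-fold more often than bright ones: the share higher was 6.2% in the dimmest quartile of mean signal, 3.79% in the second, 2.33% in the third and 1.52% in the brightest. Nr4a2 and Nr4a3 belong to the second quartile, Ier3 to the third and Nr4a1 to the brightest. All 10 members lay above 0 in log2 difference, from 0.19 to 3.83, with a median of 0.79 (1.73-fold) beside a median of 0.016 for all screened genes. The difference lay outside the 95% range of the spot error for 8 members, and inside it for Egr2 and Srf. The share of all screened genes outside this range is not given here, so the 8 cannot be set against it. Over all genes above background on both arrays, the log2 difference had a standard deviation of 0.57. Egr3 is counted among the 8 by its brighter probe, as processed here without normexp. By family, 3 of 3 Nr4a genes, 0 of 3 Egr genes and 1 of 2 Ier genes passed 2-fold. The difference between the families was not tested.

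**Figure D2:**
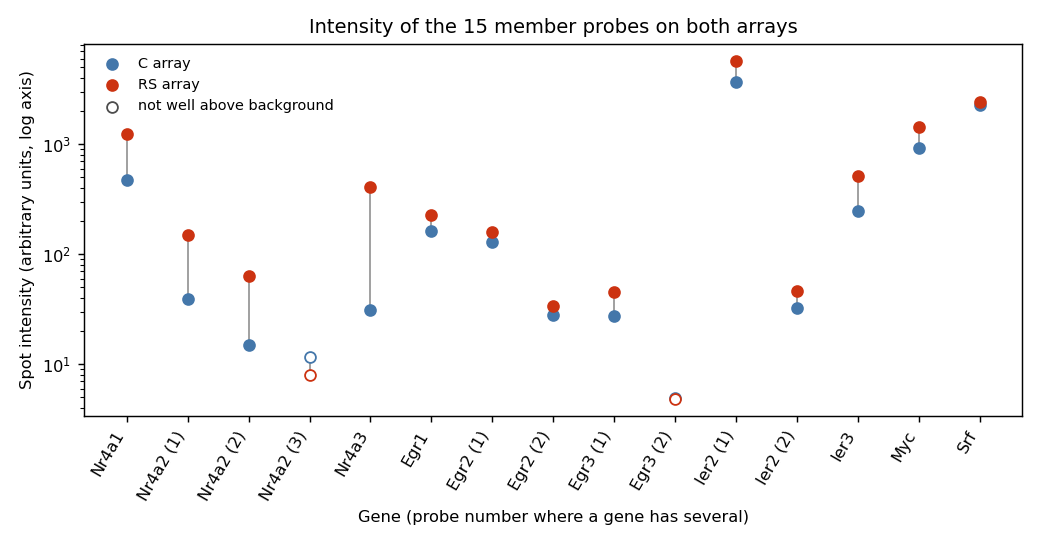
Spot intensity (arbitrary units, log axis) of the 15 member probes on the C array and the RS array, each point the mean over the spots of a probe; open points were not well above background. Intensity was higher on the RS array for every probe drawn with filled points, and the Nr4a3 pair, at 31.1 and 413, is the farthest apart.

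The Nr4a genes encode the receptors NUR77 (Nr4a1), NURR1 (Nr4a2) and NOR1 (Nr4a3). The single Nr4a3 probe (chr5:64753210-64753269, plus strand, build rn4, as are all probe positions here; from base 4297 of its transcript) read 31.1 in intensity units on C and 413 on RS. After scaling of the arrays to each other, this was a 14.2-fold difference (log2 3.83, spot error 0.23), and it ranked 15 among the increases of the 21096 screened genes. With the normexp background correction, which draws dim signals toward each other, the log2 difference was 2.41.

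Nr4a2 had 3 probes, all on the minus strand of chromosome 3. Probe 1 (chr3:38866258-38866317, from base 2459 of the transcript) read 39.0 on the C array and 149 on the RS array, a log2 difference of 2.03 (4.09-fold, spot error 0.22). Probe 2 (chr3:38867021-38867080, from base 1696), 763 bases from probe 1, read 14.9 and 63.3, a log2 difference of 2.18 (4.54-fold, spot error 0.31). These 2 probes differed from each other by less than their spot errors. Probe 3 (chr3:38864703-38864762), listed under a predicted transcript and 1555 bases from probe 1, read 11.6 and 7.95, and neither value was well above background. It holds a run of 6 alternating A and G bases; such runs were present in the probes of 45.2% of all genes at least 2-fold lower on the RS array and of 4.80% of the screened genes, and the part of the run in the value of probe 3 was not tested. The mean over the 3 probes gave a log2 difference of 1.26, and normexp gave 1.19 for probe 1. The sequence of probe 2, 1 of the 2 probes of Nr4a2 that carried the increase, is shown as the files give it.
Nr4a2 probe 2: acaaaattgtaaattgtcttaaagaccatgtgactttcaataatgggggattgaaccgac

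Nr4a1 was measured by 10 spots of 1 probe (chr7:140020442-140020501, plus strand, from base 2342 of the transcript). Its intensity was 477 on the C array, where the spots read 439 to 514. On the RS array it was 1231, from the 6 spots not flagged as outliers, which read 1182 to 1268; the 4 flagged spots widened the range to 1137 to 1394. The spots of the arrays did not overlap, flagged spots included, but they are repeated readings of 1 RNA sample per group. The log2 difference was 1.47 (2.76-fold, spot error 0.075), which ranked 354 among the increases of all screened genes. Nr4a1 lay in the brightest quartile, in which 95% of genes had a log2 difference below 0.46.

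**Figure D3:**
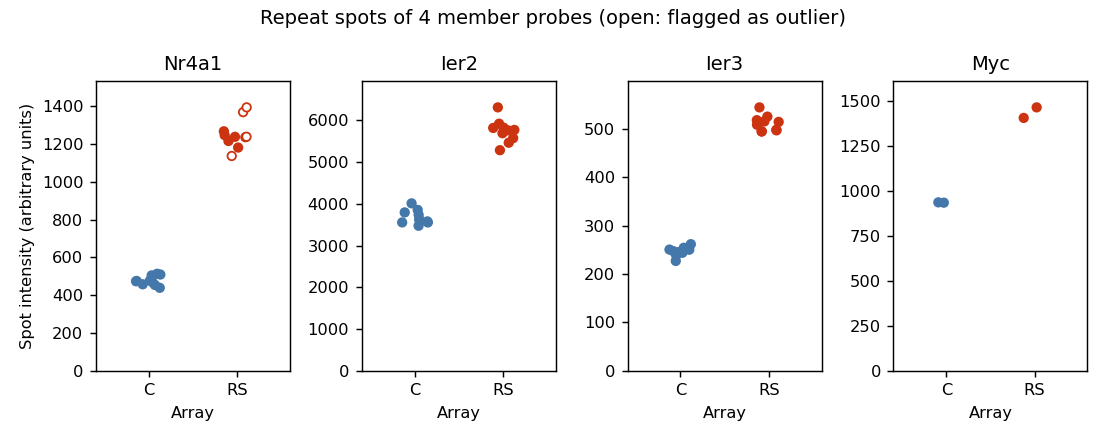
Intensity (arbitrary units, axis from 0) of every spot of the 4 member probes printed more than once, on the C and RS arrays; open points were flagged as outliers. No spot of Nr4a1, Ier2, Ier3 or Myc on the RS array fell within the range of the C array.

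The Egr genes, which encode zinc finger regulators, showed smaller differences. Egr1, the founding member of the family, read 164 on the C array and 226 on the RS array (chr18:27346058-27346117, plus strand), a log2 difference of 0.56 (1.48-fold, spot error 0.21). Egr2, a regulator of peripheral tolerance in T cells and of myelination, read 129 and 160 with probe 1 (chr20:21883940-21883999, minus strand), a log2 difference of 0.40 (1.32-fold, spot error 0.21). Its probe 2 (chr20:21884977-21885036) read 27.9 and 34.1, a log2 difference of 0.39 (spot error 0.25). Both Egr2 differences were within the 95% range of the spot error. Egr3, which acts with Egr2 in T cells, read 27.3 and 45.6 with a probe to which the files give no position, a log2 difference of 0.84 (1.79-fold, spot error 0.25). The other Egr3 probe (chr15:50479803-50479862, plus strand) read 4.91 and 4.86, neither of them well above background, so that the value of Egr3 rests on 1 probe. The log2 difference of Egr3 was 0.46 as the mean over both probes and 0.33 with normexp, each within the 95% range of the spot error of the brighter probe.

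Ier2 and Ier3 encode small proteins without a known DNA-binding domain; IER3 (IEX-1) is known for its part in cell survival. Ier2 read 3677 on the C array and 5737 on the RS array with a probe of 10 spots (chr19:25160648-25160707, plus strand), with spots from 3475 to 4012 and from 5285 to 6311. The log2 difference was 0.74 (1.67-fold, spot error 0.065). A further Ier2 probe (chr19:25159377-25159436), near the start of the transcript, read 32.7 and 46.6, a log2 difference of 0.61 (spot error 0.24). The probes thus gave similar differences at very unlike brightness. The sequence of the dimmer probe, from base 101 of the transcript, is shown.
Ier2 probe 2: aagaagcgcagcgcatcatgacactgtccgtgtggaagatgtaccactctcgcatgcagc

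Ier3 read 247 on the C array (10 spots, 227 to 262) and 511 on the RS array (10 spots, 495 to 544), with a probe at chr20:3076832-3076891 on the minus strand. The log2 difference was 1.15 (2.22-fold, spot error 0.065), and the spots did not overlap. Ier3 is the member nearest to the threshold: normexp gave a log2 difference of 0.97, under 2-fold. Myc, which encodes a growth-promoting helix-loop-helix factor, read 936 (2 spots, 935 and 936) and 1435 (2 spots, 1406 and 1464), a log2 difference of 0.72 (1.64-fold, spot error 0.14; chr7:98957687-98957746, plus strand). Srf read 2289 and 2445, a log2 difference of 0.19 (1.14-fold, spot error 0.20; chr9:9797512-9797571, plus strand), the smallest of the members and within the spot error. In the order of the increases, the members ran Nr4a3, Nr4a2, Nr4a1, Ier3, Egr3, Ier2, Myc, Egr1, Egr2 and Srf. From Egr3 onward, each gene differed from the next by less than their combined spot error. The longest run of bases shared by probes of different members was 9, between Egr2 and Ier3; matches of the probes to other transcripts were not searched.

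**Figure D4:**
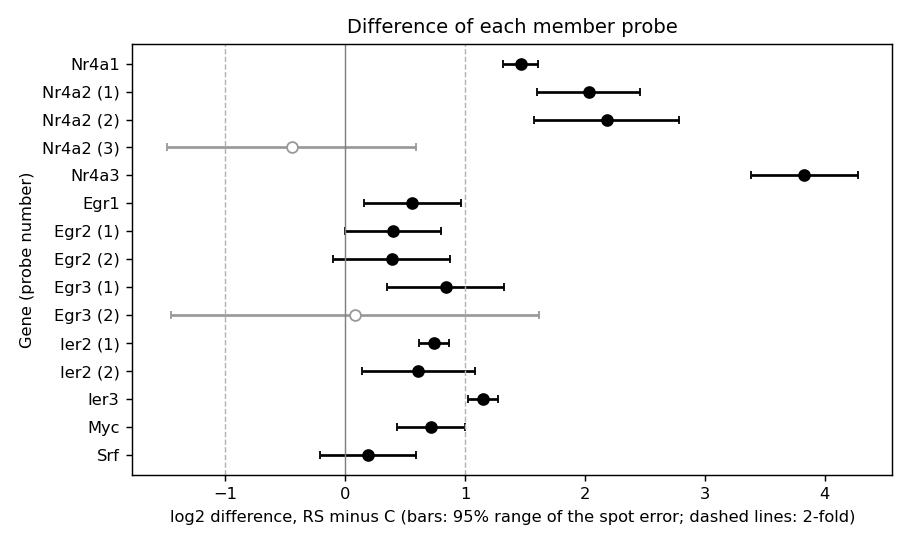
Log2 difference, RS minus C, of each member probe, with bars for the 95% range of the spot error and dashed lines at 2-fold. Every bar of Nr4a1, Nr4a3 and Ier3 and of Nr4a2 probes 1 and 2 lies beyond the upper dashed line. The bars of Egr2, Srf, Nr4a2 probe 3 and Egr3 probe 2 reach 0.

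For each member past 2-fold, the screened gene with the most similar pair of values was sought by the Euclidean distance over the 2 normalized log2 values, 1 per array. For Nr4a3 it was Adamts4, which encodes an aggrecan-cleaving protease (26.5 on the C array and 426 on the RS array; distance 0.24). For Nr4a2 it was Procr, the endothelial protein C receptor gene (37.4 and 153; distance 0.070), for Nr4a1 Il1rn, which encodes the interleukin-1 receptor antagonist (512 and 1247; distance 0.10), and for Ier3 the collagen gene Col4a1 (251 and 533; distance 0.067). A distance over 2 arrays describes these values alone.

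Other genes of the same pathways were counted from lists, which were chosen with earlier results of these data known. Among 32 other immediate early genes, 16 were at least 2-fold higher on the RS array and 1 was at least 2-fold lower. Of all screened genes, 3.46% were higher and 4.28% lower by this threshold. In the list of 32, 31 lay above 0, with a median log2 difference of 0.97 beside 0.016 for all screened genes. The AP-1 genes Fosb and Fosl1 were dim on the C array (9.94 and 9.17, not well above background). They read 498 and 264 on the RS array, 53.7-fold higher for Fosb and at least 29.9-fold higher for Fosl1. Fos likewise read 11.4 and 84.3, 7.89-fold higher. The values of Fosb and Fos are plain ratios over a C reading not well above background. The spot errors in log2 were 0.36 for Fosb, 0.42 for Fosl1 and 0.25 for Fos. Atf3, a stress-induced bZIP factor, read 59.5 and 584 (log2 3.39), and Cyr61, a secreted matrix protein gene, 40.9 and 554 (log2 3.86). Klf2, which encodes a factor of lymphocyte quiescence and trafficking, was the 1 gene lower, at 569 and 256 (log2 -1.05). Nr4a3 thus lay below the values of Fosb and Fosl1 and close to Cyr61 in log2 difference.

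Genes that act with the members, other family genes and target genes of SRF and MYC mostly differed by less than 2-fold between the arrays. Of 3 other EGR and NAB genes, 0 passed 2-fold and the median was 0.53, or 0.26 with normexp and 0.25 with the dimmest probe of each gene. Nab2, a corepressor of EGR proteins, read 1765 and 2375 (log2 0.53). Egr4 was well above background on the RS array only, at 14.8, and gave a lower bound of 0.75. Of 3 RXR genes, which encode partners of some but not all NR4A receptors, 0 passed 2-fold and all 3 lay below 0 (median -0.14). Of 4 screened SRF cofactors, 0 passed 2-fold (median -0.085). Of 13 SRF cytoskeletal targets, 2 were at least 2-fold higher, beside 3.46% of all screened genes. These 2 were Actg2 (25.3 and 57.4, log2 1.28) and Vcl, the vinculin gene (83.3 and 183, log2 1.23). The median of the 13 targets was 0.60, with Actb at -0.13 and Actg1 at 0.03. That median was 0.26 with the dimmest probe of each gene, 0.28 with the mean over probes and 0.34 with normexp. Of 10 genes of the MYC dimerization network, 1 was at least 2-fold lower, Mycn (33.4 and 14.0, log2 -1.16), and the median was -0.065. Of 15 MYC targets of ribosome making and polyamine synthesis 0 passed 2-fold, and the median was 0.14.

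Of 8 genes of CREB and its coactivators, Crem alone passed 2-fold. Crem encodes CREM and, from an internal promoter, the repressor ICER, and it read 688 on the C array and 7049 on the RS array, a log2 difference of 3.46 (spot error 0.20). The 4 Crem probes well above background on both arrays gave log2 differences between 3.25 and 3.46. A dimmer Crem probe read 2.35 on the C array, not well above background, and 20.0 on the RS array. Creb1 itself was at -0.02, and the median of the list was 0.041. Of 10 ERK pathway kinases, 1 passed 2-fold, Map2k1, which was lower (2722 and 505, log2 -2.33). Its probe held a run of 8 alternating A and G bases, and the other Map2k1 probe, without such a run, read 734 and 738 (log2 0.11); the median of the kinases was -0.052. Of 12 screened lymphocyte activation genes, 2 were at least 2-fold higher, beside 3.46% of all screened genes. These 2 were Cd69 (242 and 638, 2.83-fold) and Cd83 (7099 and 13988, 2.11-fold). Both encode early surface markers of activated lymphocytes or dendritic cells, and the median of the list was 0.27, with Tnf at 0.07 and Nfatc1 at 0.11.

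**Figure D5:**
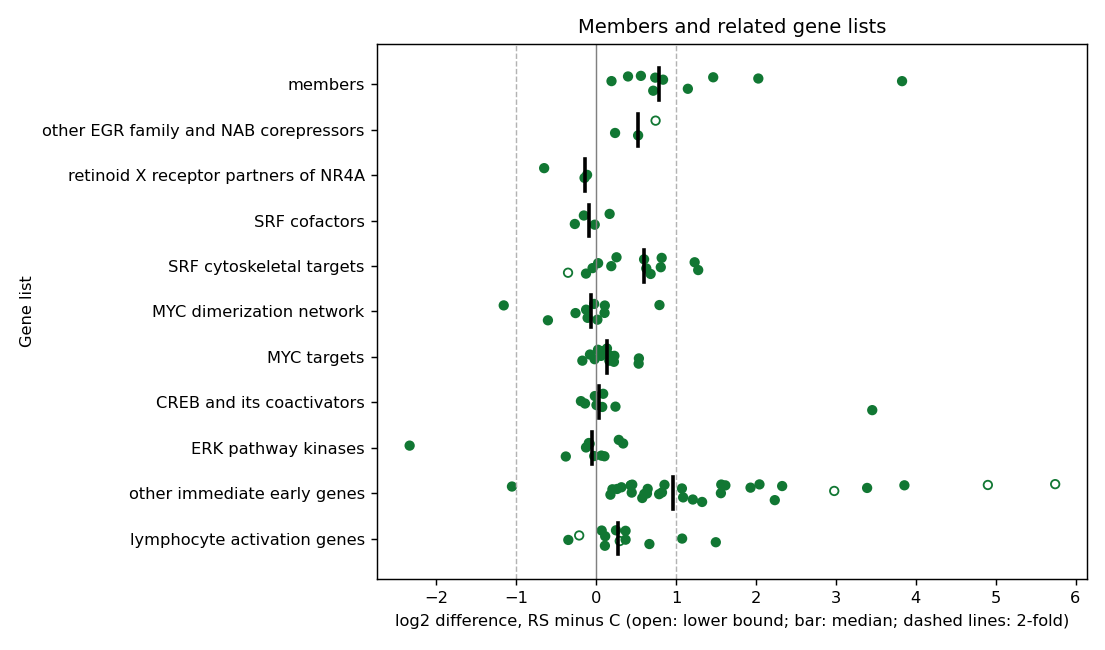
Log2 difference, RS minus C, of the members and the genes of 10 related lists, with 1 point per gene. Open points are genes well above background on 1 array only. The axis labels them as lower bounds, but some, such as Fosb and Fos, are plain ratios. Black bars are medians and dashed lines 2-fold. The other immediate early genes spread farthest to the right, with a median of 0.97, whereas the medians of the kinases, the RXR genes and the MYC network lie near 0.

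The tissue was checked against markers of the cells it could hold. Lymphocyte markers were well above background on both arrays: 7 T cell genes had summed intensities of 31249 (C) and 26144 (RS), and 5 B cell genes of 14257 and 13847, with 0 past 2-fold. The sums given here are not scaled between the arrays. In scaled log2 difference, 6 T cell genes lay below 0 and 1 above (median -0.16), with Cd5 lowest at -0.97. Of the B cell genes, 3 lay above 0 and 2 below (median 0.099). Macrophage genes (6 genes, 11441 and 10308) and endothelial genes (6 genes, 5566 and 5882) had 0 past 2-fold. Other lists held genes that were higher on the RS array, where 3.46% of all screened genes were at least 2-fold higher. Of 7 screened erythrocyte genes, 7 were at least 2-fold higher, and their sum was 10236 and 57588. Of 7 screened fat cell genes, 5 were at least 2-fold higher (sum 6688 and 16123). Of 6 neutrophil genes, S100a8 and S100a9 were at least 2-fold higher (sum over 3 screened genes 74.2 and 769), Csf3r was at 0.11, and neither array had Mpo, Elane or Camp well above background. Muscle genes had 0 of 3 screened past 2-fold (sum 145 and 152), platelet genes 0 of 2 (299 and 341), and 0 of 3 salivary gland genes were well above background. The part of blood cells and fat cells in the values of the members was not tested. In RNA of a whole node, fewer cells of a type and less RNA per cell cannot be told apart. Both arrays were comparable in brightness, with a 75th percentile of 189 (C) and 176 (RS), and 54.7% and 54.9% of 45598 probes well above background.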

How the data were processed

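RNA of cervical lymph nodes was hybridized by the authors to Agilent SurePrint G3 Rat GE arrays, 1 per group, and they deposited the Feature Extraction 11.5.1.1 output of each array: spot intensity values on a linear scale, background-subtracted by the software and not normalized between arrays. A deposited table of log2 values per probe lay within 0.1 log2 of the values computed here for 100% of probes and served as an alternative. The header of the files names build rn4.

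Of 58717 noncontrol spots per array, 489 (C) and 660 (RS) flagged as outliers were left out. Log2 intensities were averaged over the spots of a probe and the 75th percentile of the array was subtracted. A probe was well above background when over 50% of its spots were marked so; a gene was represented by its brightest probe. A call means a 2-fold difference, since 1 array per group allows no test. For a gene that only 1 array placed well above background, a floor was used for the dim signal. The floor was the lowest signal well above background on that array (intensity 9.45 on the C array and 8.52 on the RS array). A dim signal under the floor was raised to it, which makes the difference a lower bound. A dim signal over the floor, as for Fosb and Fos, was used as it stood and gave a plain ratio. Spot error combines the scanner's errors of both arrays, averaged over the spots of a probe as if these were independent. The number of arrays limits the precision.

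Genes were named by rule: all members with every probe, list genes past 2-fold (at most 5 per direction and list), and the nearest gene of each member past 2-fold; further genes named in the lists, with values, were chosen after their values were seen. The members and lists were chosen with earlier results of these data known. RefSeq accessions matched 13 of 15 member probes. Alternatives covered scaling, background correction with limma 3.58.1 (normexp, offset 50), probe choice, spot flags, background filters and the spot error. The steps were tested on simulated data. R 4.3.3, Python 3.11.15, numpy 2.4.6, pandas 2.3.3 and matplotlib 3.10.9 were used.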

Additional observations from a re-analysis of the deposited data

Results flagged for a closer look

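A probe that the files list under an Ensembl transcript and describe as Nr4a3 lay outside the comparison of the members by gene name (chr5:64754182-64754241, plus strand, build rn4), 972 bases from the Nr4a3 probe. It was well above background on both arrays, at an intensity of 42.5 (C) and 477 (RS). The log2 difference was 3.59 (12.0-fold, spot error 0.22). It differed from that of the Nr4a3 probe by 0.24, with a combined spot error of 0.31.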

How the results depend on the processing

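Under the 13 alternatives, 3 to 4 members were at least 2-fold higher and 0 at least 2-fold lower. The count was 3 with normexp, where Ier3 fell under 2-fold, and with the dimmest probe of a gene, where Nr4a2 has no value. The median log2 difference of the members ranged from 0.66 to 0.81. Of 128 member values, 116 moved by less than the spot error, 12 moved by more and 0 changed sign, and every member with a value lay above 0. These counts include values that could not move. Settings of the background filter, the lower bound and the error multiple leave genes above background on both arrays unchanged, as all members were. Probe choice cannot move a member with 1 probe. The dimmest Nr4a2 probe, at log2 -0.45, was not well above background and was not counted. Of the genes screened, 234 were at least 2-fold higher and 378 lower with normexp, 601 were lower when both arrays had to be well above background, and 2031 were higher and 2148 lower with no filter on background. The share of higher genes among all genes past 2-fold was 44.7%, and 38.0% to 48.6% under the alternatives. The medians of CREB genes, ERK kinases, macrophage, endothelial and muscle genes lay on either side of 0 depending on the setting. The cause was not tested. No paired analysis was possible because there was 1 array per group; for the same reason no replicate could be left out. Signal over background limits the dim members: with normexp the log2 difference was 1.19 for Nr4a2, 2.41 for Nr4a3 and 0.33 for Egr3.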
